A study of Mus musculus with 16 samples.

Results

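The genes described here are 53 lineage-specifying transcription factor genes, a named list of regulators of the germ layers and of the tissues made from them. They were taken from 22367 protein-coding genes of the mouse annotation and fall into 21 neural and neural crest genes, 22 mesoderm genes and 10 endoderm genes. The rule itself reads gene names and positions, but the list was drawn up with earlier results of these data known. For each gene, every CpG within 2 kb of a transcription start site was assigned to the promoter, and the remaining CpGs of the transcribed span and its 5 kb flanks to the gene body. Sox1, missing from the annotation, was placed by an exact match of its promoter sequence and has a promoter only. A level is the mean, over the covered CpGs, of the percentage of reads that were methylated.

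DNA methylation was measured by reduced representation bisulfite sequencing, in which bisulfite-treated fragments enriched for CpG-dense DNA are read so that methylated and unmethylated cytosines are told apart. The 16 libraries covered 8 conditions of E14 mouse embryonic stem cells (mESCs) of the 129/Ola strain, with 2 replicates in each. YP-mESCs were young cells at passage 14 and OP-mESCs were the same line after about 70 passages, both grown in serum with LIF. OP-S33Y #1 and OP-S33Y #2 were clones made in YP-mESCs that overexpressed β-catenin S33Y, a form stabilised by the loss of a phosphorylation site, and they were then passaged in the same way as OP-mESCs. Each of these conditions is a single clone. In the other arm, YP-mESCs carried a control short hairpin RNA (mESC shCtrl) or 1 hairpin construct against β-catenin (mESC shβcat). The same cells were also grown without LIF as embryoid bodies for 8 days (EB shCtrl and EB shβcat). The study calls the replicates of the passaged lines and clones biological, and the labels do not say whether any came from separate cultures, so the p-values measure only the spread between these libraries. The hairpin target and the S33Y form could not be checked, since methylation carries no expression value.

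Transcription factors of this kind set the fate of cells as the embryo forms its germ layers. In embryonic stem cells their promoters usually lie in CpG islands, which are long CpG-dense stretches that stay largely unmethylated while Polycomb proteins hold the genes silent. Gene bodies outside islands are usually methylated in the same cells. β-catenin carries the Wnt signal to the nucleus and takes part in the choice between self-renewal and mesoderm or endoderm.

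The libraries held between 413282 CpGs (OP-mESC replicate 2) and 1152971 CpGs (EB shβcat replicate 1), each with at least 10 reads, and the median was 22 to 42 reads per CpG. The second YP-mESC library had no CpG on chromosome 13, so Isl1, Msx2 and Neurog1 could not be compared with young cells. On 329078 CpGs shared by all libraries, the mean level was 21.1% in both OP-mESC libraries and 24.4% in both YP-mESC libraries. It was 27.0% and 27.1% in mESC shCtrl, 31.4% and 31.5% in EB shCtrl, and 31.1% and 31.4% in EB shβcat. OP-S33Y #2 stood at 23.7% and 23.4%, below YP-mESCs. Where such a shift runs the same way as a result below, its part in that result was not tested. In bulk DNA, an intermediate level in every cell and a mixture of methylated and unmethylated cells cannot be told apart.

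The promoters of the 53 genes were mostly unmethylated in undifferentiated cells and had their highest levels in embryoid bodies with β-catenin silenced. The median promoter level was 2.92% ± 0.410 (SD, n = 2, 49 genes) in YP-mESCs and 1.93% ± 0.498 in OP-mESCs. The S33Y clones had medians of 2.31% ± 0.269 (#1) and 4.06% ± 0.329 (#2). In the knockdown arm it was 7.35% ± 0.993 in mESC shCtrl, 7.07% ± 0.847 in mESC shβcat, 9.40% ± 0.620 in EB shCtrl and 13.85% ± 0.770 in EB shβcat, each over 53 genes. The mESC shCtrl and mESC shβcat medians differed by less than their spread. Levels of 20% or more were reached by 3 genes in YP-mESCs, 0 in OP-mESCs, 6 in mESC shCtrl, 13 in EB shCtrl and 17 in EB shβcat. These were 6.12%, 0%, 11.3%, 24.5% and 32.1% of the members with a level. Over all genes the shares were 20.6%, 13.8%, 25.9%, 32.0% and 33.3%. Genes under 5% numbered 30, 38, 19, 13 and 6 in the same conditions. These were 61.2%, 74.5%, 35.85%, 24.5% and 11.3%, beside 58.5%, 70.2%, 44.1%, 35.25% and 33.4% over all genes.

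**Figure D1:**
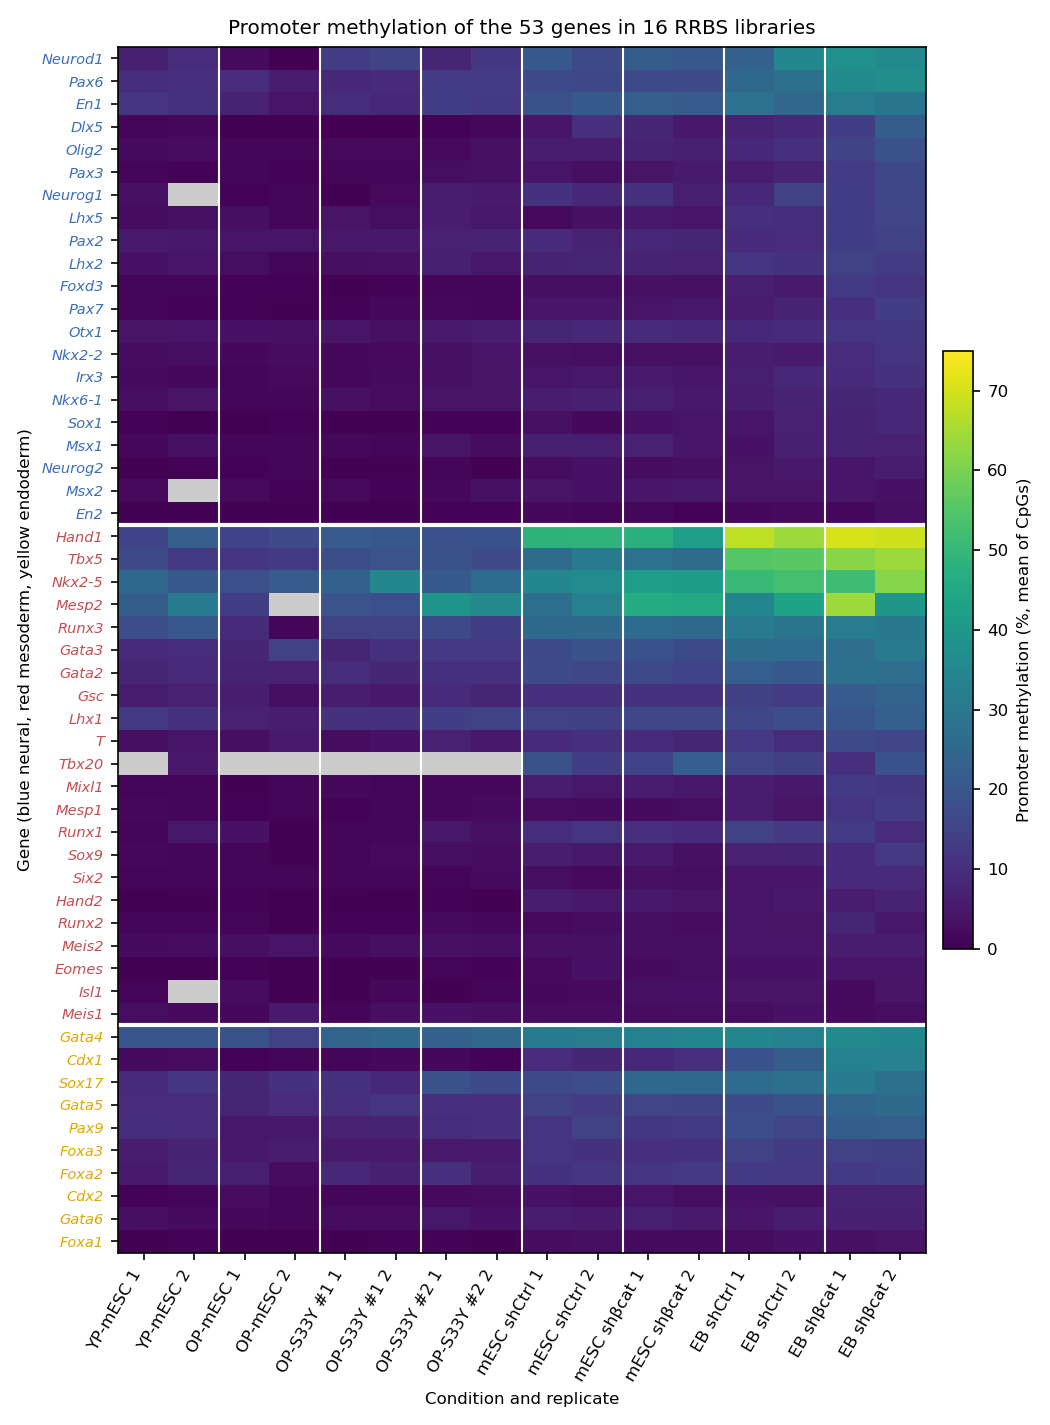
Promoter methylation (%, colour, mean of covered CpGs) of each of the 53 genes (rows, grouped as neural, mesoderm and endoderm) in each of the 16 libraries (columns). Grey cells had too few CpGs. Most rows stay dark in the undifferentiated cells, and the brightest rows are Hand1, Tbx5 and Nkx2-5 in embryoid bodies.

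Of 48 genes with a value in all conditions, 46 had their highest promoter mean in EB shβcat, and 33 had their lowest in OP-mESCs. Restricted to CpGs covered in all libraries, these counts were 42 and 31. Such counts were not made over all genes. The neural genes had the lowest median and the endoderm genes the highest in all 8 conditions. The neural median was 2.59% in YP-mESCs, which belong to the other arm, 5.84% in mESC shCtrl, 7.35% in EB shCtrl and 12.2% in EB shβcat. In the same order, the mesoderm median was 3.40%, 10.01%, 12.4% and 13.5%, and the endoderm median 6.58%, 11.36%, 15.2% and 18.5%. On CpGs covered in all libraries, the neural median was 4.976% in mESC shCtrl and 7.158% in EB shCtrl. There the mesoderm medians were 5.755% and 7.267%, and the endoderm medians 9.198% and 18.73%. No test was made between lineages.

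The levels of the most methylated genes were spread widely. Hand1, a basic helix-loop-helix factor of the heart and extraembryonic mesoderm, stood at 15.0% and 22.8% in the YP-mESC replicates, 48.5% and 48.8% in mESC shCtrl, 67.9% and 64.0% in EB shCtrl and 70.5% and 69.7% in EB shβcat. The T-box heart and forelimb factor Tbx5 stood at 17.2% and 12.6%, 26.5% and 31.2%, 55.2% and 55.9%, and 61.7% and 64.1% in the same conditions. Nkx2-5, a homeobox factor of the early heart, stood at 25.2% and 21.1%, 34.7% and 36.1%, 50.5% and 52.8%, and 51.6% and 61.3%. These 3 promoters stayed above the median of the list in every condition. Mesp2, a factor of the presomitic mesoderm, was the least even, with 63.9% and 39.6% in the EB shβcat replicates. The other genes among the 10 highest were Neurod1, Pax6, Gata4, Cdx1, Runx3 and En1, with highest means between 30.5% and 36.8%, all in EB shβcat.

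At the other end, Sox1, a marker of the early neural plate, stayed at 0.63% and 0.33% in YP-mESCs and reached 7.25% and 8.32% in EB shβcat. Gata6, a factor of the primitive endoderm, stood at 2.99% and 2.30% in YP-mESCs and 6.66% and 6.58% in EB shβcat. In mESC shCtrl it already stood at 5.63% and 5.33%, and in EB shCtrl at 4.48% and 5.68%. Pax6, the homeobox factor of eye and neural tube, lay between these genes and the heart factors, at 9.68% and 9.97% in YP-mESCs. It stood at 17.0% and 16.2% in mESC shCtrl, 25% and 27.7% in EB shCtrl and 35.5% and 37.0% in EB shβcat. For all 3 genes both EB shβcat libraries lay above both YP-mESC libraries, which belong to the other arm. How many of all genes did so was not counted. The mean over CpGs shared by all libraries was also higher, at 31.1% and 31.4% beside 24.4% in both YP-mESC libraries.

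The promoters were CpG-rich, with a median of 171 reference CpGs in the 4 kb around the start site (range 36 to 310) beside 85 for all genes. Across genes, a denser promoter tended to have a lower level, with Pearson's r between -0.405 and -0.483 and Spearman's rho between -0.372 and -0.478 over the 8 conditions. These correlations run across genes that share libraries and are given as a description.

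Methylation was lowest at the start site and higher on both sides of it. In the 500 bases upstream of the start site it was 3.0% and 3.2% in YP-mESCs and 13.6% and 15.0% in EB shβcat. Between 2 and 3.5 kb downstream it was 27.0% and 26.7%, and 45.9% and 48.3%. Gene bodies were far less methylated than those of other genes, with medians of 15.96% in YP-mESCs and 39.98% in EB shβcat beside 70.02% and 80.9% over all genes.

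**Figure D2:**
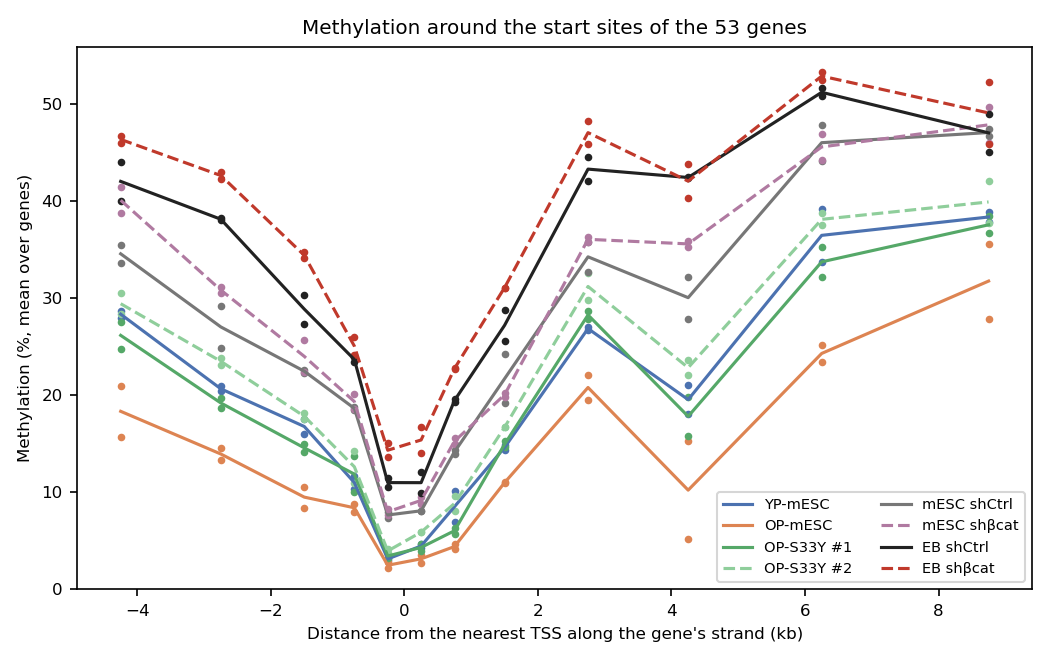
Methylation (%) of the members' CpGs by distance from the start site (kb), with a line for each condition. All conditions dip at the start site, and EB shβcat lies above the others there, at 13.6% and 15.0% in the 500 bases upstream.

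The first comparison asked what long culture did to these genes. Promoter levels in OP-mESCs were mostly below those of YP-mESCs by small amounts, with 35 of 48 genes lower, beside 8014 of 12343 over all genes. The median difference was -0.82 percentage points beside -0.24 over all genes. A gene was called where the quasi-binomial F test across all genes gave a Benjamini-Hochberg adjusted p under 0.05 and the CpG means differed by at least 10 points. No promoter of the 48 was called, beside 3.7% of all genes. A promoter under 10% cannot fall by 10 points, and 30 of 49 stood even under 5% in YP-mESCs. Those between 5% and 10% were not counted. Over all genes 58.5% stood under 5%. At an unadjusted p under 0.05 there were 12 of the 48, all lower, beside 25.6% of all genes (2775 of 12343 lower and 388 higher). With limma 0 were called beside 206 of 12343 genes. The largest differences were at Pax9, a pharyngeal endoderm factor, from 12.2% and 11.2% to 5.72% and 4.80% (adjusted p = 0.102), and at En1, a midbrain and limb factor, from 10.5% in both replicates to 5.14% and 4.51% (adjusted p = 0.00367). At both genes the OP-mESC and YP-mESC replicates did not overlap. Over all genes 5038 of 12343 promoters were lower and 1483 higher without overlap.

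In gene bodies 3 of 42 genes were called, beside 20.8% of all genes. Nkx6-1, a factor of ventral neural progenitors and pancreatic islets, fell by 18.3 points, from 42.5% and 35.5% in YP-mESCs to 22.8% and 18.6% in OP-mESCs (adjusted p = 0.000186). Tbx5 fell by 10.3 points, from 31.4% and 35.3% to 23.2% and 22.8% (adjusted p = 0.00896). Otx1, a forebrain homeobox factor, rose by 11.2 points, from 31.2% and 32.4% to 41.2% and 44.7% (adjusted p = 0.0175), over the 12 CpGs covered in OP-mESC replicate 2. Over all CpGs covered in each library, Otx1 stood at 14.3% and 9.69% in YP-mESCs and 11.2% in OP-mESC replicate 1 (48 CpGs). Without OP-mESC replicate 2, which lets more CpGs into the fit, the Otx1 difference was 2.33 points. Calls downward numbered 2 of 42, beside 20.6% of all genes, and calls upward 1 of 42, beside 0.145%. Without OP-mESC replicate 1 the same 3 were called. Without either YP-mESC library or OP-mESC replicate 2 none was, but only 2, 2 and 0 genes of the whole table were, so those fits carry no information on these genes. The median body difference was -2.51 points beside -5.87 over all genes. Bodies were lower in 39 of 42 genes, beside 9102 of 10325 over all genes. The YP-mESC medians were 16.3% in the members and 66.8% over all genes. A body that starts low has less room to fall by 10 points, which limits the comparison of falls and of downward calls.

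**Figure D3:**
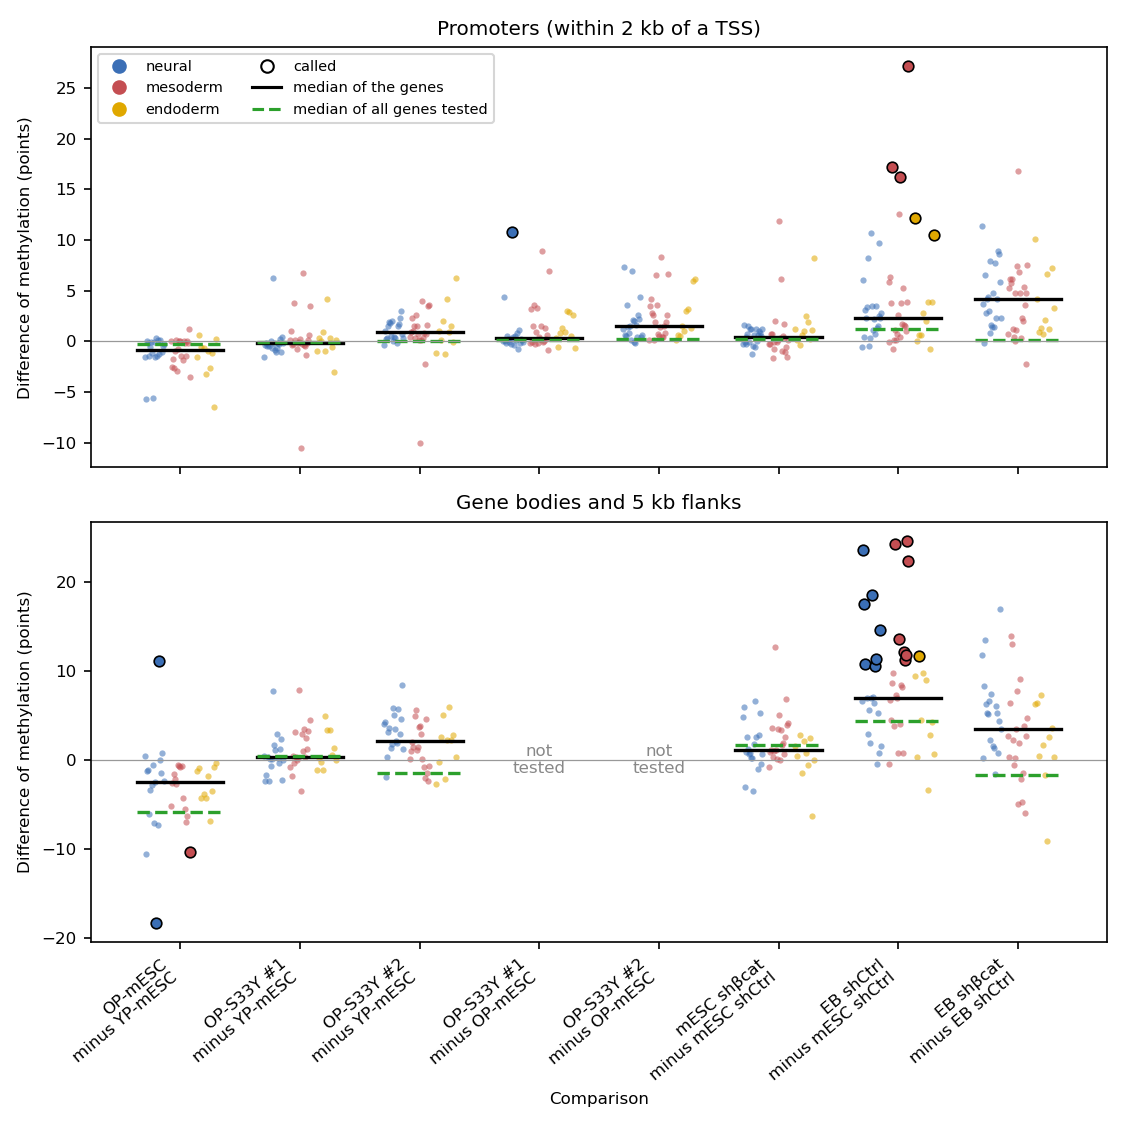
Difference in methylation (percentage points) of each gene in each comparison, for promoters and gene bodies, one point per gene. The EB shCtrl against mESC shCtrl and EB shβcat against EB shCtrl promoters lie mostly above 0, with medians of 2.30 and 4.15 points.

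The clones with stabilised β-catenin were compared with YP-mESCs and with OP-mESCs, and the comparisons share those control libraries. Against YP-mESCs, promoters of OP-S33Y #1 had no called gene of 49, beside 0.188% of all genes, with 4 at an unadjusted p under 0.05 beside 11.1%. Here limma called 0 of the members and 0 of all genes, so its 0 says nothing of the members. The largest differences there were at Mesp2, with -10.5 points (adjusted p = 0.386), and Nkx2-5, with 6.79 points. Its gene bodies had no called gene of 46, beside 0.48%, with 8 at an unadjusted p under 0.05 beside 15.0%. For bodies limma called 0 beside 75 of 12511 genes. Meis2, a homeobox cofactor, was 7.90 points higher and Neurod1, a neuronal and endocrine differentiation factor, 7.74 points higher.

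OP-S33Y #2 promoters were higher than YP-mESCs in 42 of 49 genes, beside 7166 of 13885 over all genes. None of the 49 was called, beside 1.07% of all genes. At an unadjusted p under 0.05 there were 18, 17 of them higher, beside 17.0% of all genes (1053 of 13885 higher and 1310 lower). With limma 0 were called beside 58 of 13885 genes. Mesp2 had a difference of -9.96 points over the 3 CpGs shared by these libraries, while over all CpGs covered in each it stood at 38.8% and 35.3% in OP-S33Y #2 and 22.1% and 30.6% in YP-mESCs. Sox17, an endoderm factor, was 6.25 points higher. Bodies were higher in 37 of 46 genes, beside 4251 of 12605, with a median of 2.20 points beside -1.47 over all genes. None was called beside 4.81%. At an unadjusted p under 0.05 there were 16, all higher, beside 20.5% of all genes (466 of 12605 higher and 2114 lower). For these bodies limma called 0 beside 664 of 12605 genes. Pax6 was 8.49 points higher and Gata5, a cardiac and endoderm factor, 5.93 points higher.

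Against OP-mESCs, 1 of 51 promoters was called in OP-S33Y #1, beside 4.34% of all genes and 4.27% upward. This was Neurod1, which rose by 10.8 points over 6 CpGs, from 0.49% and 0.27% to a mean of 11.2% ± 1.68 (SD of 2 libraries, adjusted p = 6.08e-05). With any of the 4 libraries left out, 0 genes of the whole table were called, so those fits carry no information on Neurod1. OP-S33Y #2 promoters were higher in 49 of 51 genes, beside 8996 of 12788 over all genes. The median difference was 1.53 points beside 0.27 over all genes. None was called beside 1.54%, with 28 at an unadjusted p under 0.05 beside 21.6%, and limma called 0 beside 35 of 12788 genes. Nkx2-5 was 8.38 points higher (adjusted p = 0.273) and En1 7.36 points higher (adjusted p = 0.00607).

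Silencing β-catenin in undifferentiated cells left no called promoter among 53, beside 0.0196% of all genes, with 2 at an unadjusted p under 0.05 beside 6.31%. Here limma called 0 of the members and 0 of all genes. Mesp2 stood at 46.4% and 45.3% in mESC shβcat and 31.8% and 36.1% in mESC shCtrl over 5 CpGs (adjusted p = 0.883). Sox17 stood at 25.3% in both mESC shβcat replicates and 16.5% and 17.7% in mESC shCtrl (adjusted p = 0.664). Neither gene overlapped between the groups. Over all genes 4740 of 15286 promoters were higher and 1563 lower without overlap. Bodies had no called gene of 49, beside 0.0%, with 8 at an unadjusted p under 0.05 beside 16.7%. For them limma called 0 of the members and 0 of all genes. Isl1, a factor of heart progenitors and motor neurons, was 12.8 points higher (adjusted p = 0.178), with 16.2% and 34.0% in its control replicates, and T, the primitive streak factor Brachyury, was 6.92 points higher. The fit without mESC shCtrl replicate 2 left 1 library in that group, and its calls are not read for single genes.

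In control embryoid bodies, the promoters of Tbx5, Hand1, Nkx2-5, Cdx1 and Sox17 were more methylated than in the control cells they came from, a share of the list near that of all genes. In EB shCtrl against mESC shCtrl, 48 of 53 promoters were higher, beside 12317 of 15098 over all genes. Of the 53, 5 were called, all upward, beside 10.8% of all genes and 10.7% upward. Tbx5 rose by 27.2 points, from 26.5% and 28.1% to 52.9% and 55.9% (adjusted p = 0.000113). Hand1 rose by 17.2 points, from 48.5% and 46.4% to 65.3% and 64.0% (adjusted p = 0.00123). In both genes every EB shCtrl library lay above both mESC shCtrl libraries, as in 9069 of 15098 promoters over all genes.

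Nkx2-5 rose by 16.2 points, from 34.7% and 36.1% to 50.5% and 52.8% (adjusted p = 0.00292). Cdx1, a caudal-type factor of the posterior embryo and gut, rose by 12.2 points, from 7.03% and 7.72% to 18.5% and 20.6% (adjusted p = 9.9e-05). Sox17 rose by 10.5 points, from 17.0% and 17.4% to 27.8% and 27.7% (adjusted p = 0.0153). Pax6 missed the 10-point minimum, at 9.74 points higher (adjusted p = 0.000969). Sox1 was 2.77 points higher (adjusted p = 0.128) and Gata6 had a difference of -0.69 points. With a library left out, 1 library remained in its group. Not every one of the called promoters stayed called then, and fewer promoters were called over all genes.

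In gene bodies 15 of 49 genes rose and none fell past the threshold, beside 26.7% of all genes called and 26.5% upward. The 10 largest were Tbx20, Isl1, En1, Tbx5, Neurod1, En2, Pax6, Mesp1, Runx3 and T. Tbx20, a heart factor, rose by 24.7 points, from 16.1% and 9.02% to 39.9% and 34.7% over 7 CpGs. En1 rose by 23.6 points, from 60.3% and 59.5% to 85.2% and 81.8% over 8 CpGs. Tbx5 rose by 22.4 points, from 44.6% and 45.2% to 65.6% and 68.9% over 76 CpGs. The body of Pax6 rose by 14.7 points and that of T by 11.9 points. The other 5 called bodies were those of Foxa1, Olig2, Six2, Foxd3 and Nkx6-1, with differences of 10.6 to 11.7 points. Without EB shCtrl replicate 2, 1 library remained in that group. Isl1 and Pax6 were among the bodies no longer called, and fewer bodies were called over all genes.

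**Figure D4:**
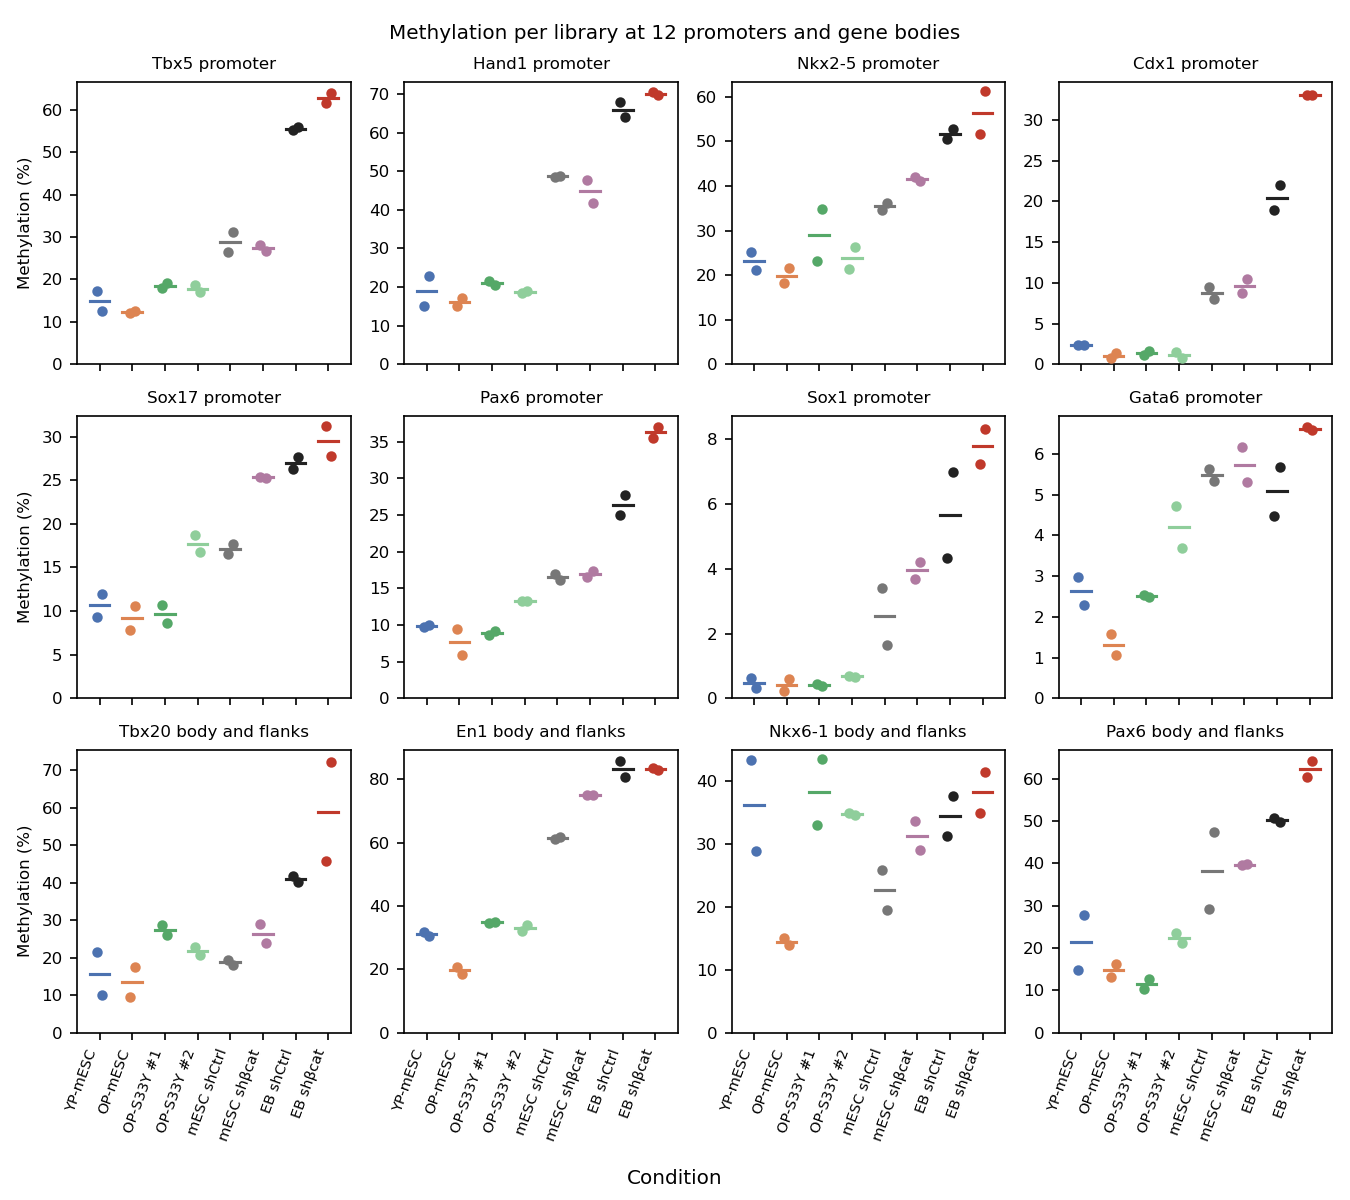
Methylation (%) per library of 8 promoters and 4 gene bodies in the 8 conditions, with a point per replicate and a bar at the mean. Tbx5, Hand1 and Nkx2-5 step up between mESC shCtrl and EB shCtrl, and Sox1 and Gata6 stay under 10% throughout.

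Within embryoid bodies, the promoters of these genes were mostly higher with β-catenin silenced, although none was called. In EB shβcat 51 of 53 promoters were higher than in EB shCtrl, beside 8973 of 14975 over all genes. The median difference was 4.15 points beside 0.196 over all genes. The replicates did not overlap and were higher in 45 of 53, beside 30.6% of all genes. At an unadjusted p under 0.05 there were 30 of 53, all higher, beside 9.98% of all genes (1139 of 14975 higher and 356 lower). None of the 53 was called, beside 0.0%. With limma 33 were under an unadjusted p of 0.05, beside 16.7% of all genes. It called 0 of the members and 0 of all genes, so its 0 says nothing of the members. The lowest adjusted p among the 53 was 0.112.

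The median difference was 4.15 points in neural, 4.75 in mesoderm and 2.71 in endoderm genes. Cdx1 stood at 19.4% and 22.4% in EB shCtrl and 32.7% and 29.4% in EB shβcat. Pax6 stood at 26.8% and 26.9% in EB shCtrl and 35.1% and 35.9% in EB shβcat over 132 CpGs, and Pax3, a neural crest and somite factor, at 4.88% and 7.26% and then 13.7% and 16.3% (adjusted p = 0.112 for each). Olig2, a motor neuron and oligodendrocyte factor, stood at 8.97% and 11.4% and then 17.2% and 18.7%. Mesp2 and Dlx5 had the largest differences, 16.8 and 11.4 points, each over 3 CpGs. Nkx2-5 was 4.79 points higher, Sox1 2.34 and Gata6 1.26.

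Body differences were mostly positive in these genes and mostly negative over all genes. They were higher in 40 of 49 genes, beside 4263 of 13758, with a median of 3.49 points beside -1.65 over all genes. The replicates did not overlap and were higher in 32, beside 14.2%. None was called beside 0.0%. At an unadjusted p under 0.05 there were 21, 19 of them higher, beside 19.4% of all genes (494 of 13758 higher and 2177 lower). Here too limma called 0 of the members and 0 of all genes. The largest were Pax6, from 43.4% and 41.2% to 54.6% and 64.1% (adjusted p = 0.108), and Gsc, a homeobox factor of the organizer, from 15.4% and 16.7% to 31.7% and 28.4%. Without EB shβcat replicate 2, the bodies of Foxd3, Gsc and Hand1 were called.

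A second list of 53 developmental factors that are not members was described beside these genes. In EB shβcat against EB shCtrl, 44 of its 48 measured promoters were higher, with a median of 3.69 points, and 0 were called. In EB shCtrl against mESC shCtrl 5 of 51 of its promoters were called, all upward. No test was made between the lists.

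Single CpGs were also compared, counting those that differed by over 25 points between the group means with no overlap of replicates. In OP-mESCs against YP-mESCs 34 of 2671 CpGs of the members did so, 31 of them lower, beside 3.47% of all CpGs. Against YP-mESCs, OP-S33Y #1 had 32 of 4556 beside 0.95%, and OP-S33Y #2 had 35 of 4731 beside 1.64%. Against OP-mESCs the clones had 49 of 2705 beside 3.43% and 52 of 2779 beside 1.81%. Silencing in mESCs gave 45 of 6596 beside 0.7%, and EB shCtrl against mESC shCtrl gave 328 of 6360, 306 of them higher, beside 7.29%. In EB shβcat against EB shCtrl there were 100 of 6172, 86 of them higher, beside 0.761%.

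Changed CpGs that lay less than 2 kb apart formed clusters, located with the same libraries that give their difference, so their levels are a description. Of 27 clusters of 5 or more CpGs, 26 were higher and 1 lower in the first-named condition. The largest was in Tbx5 at chr5:120285227-120290041 (mm9), in which 32 of 53 CpGs changed, 30 of them intronic. Its levels were 22.7% and 20.9% in YP-mESCs, 37.5% and 39.1% in mESC shCtrl, 63.2% and 65.4% in EB shCtrl and 69.4% and 71.7% in EB shβcat. The next was in a coding exon of Runx1, a blood stem cell factor, at chr16:92606028-92606222, where 16 of 18 CpGs changed and the mean over all 18 was 6.3% and 6.4% in mESC shCtrl and 45.2% and 37.1% in EB shCtrl. The others of the 8 largest lay in Lhx1, Foxa1, Runx3, upstream of Tbx5 and, in OP-S33Y #1, in an intron of Gata4 against both controls.

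**Figure D5:**
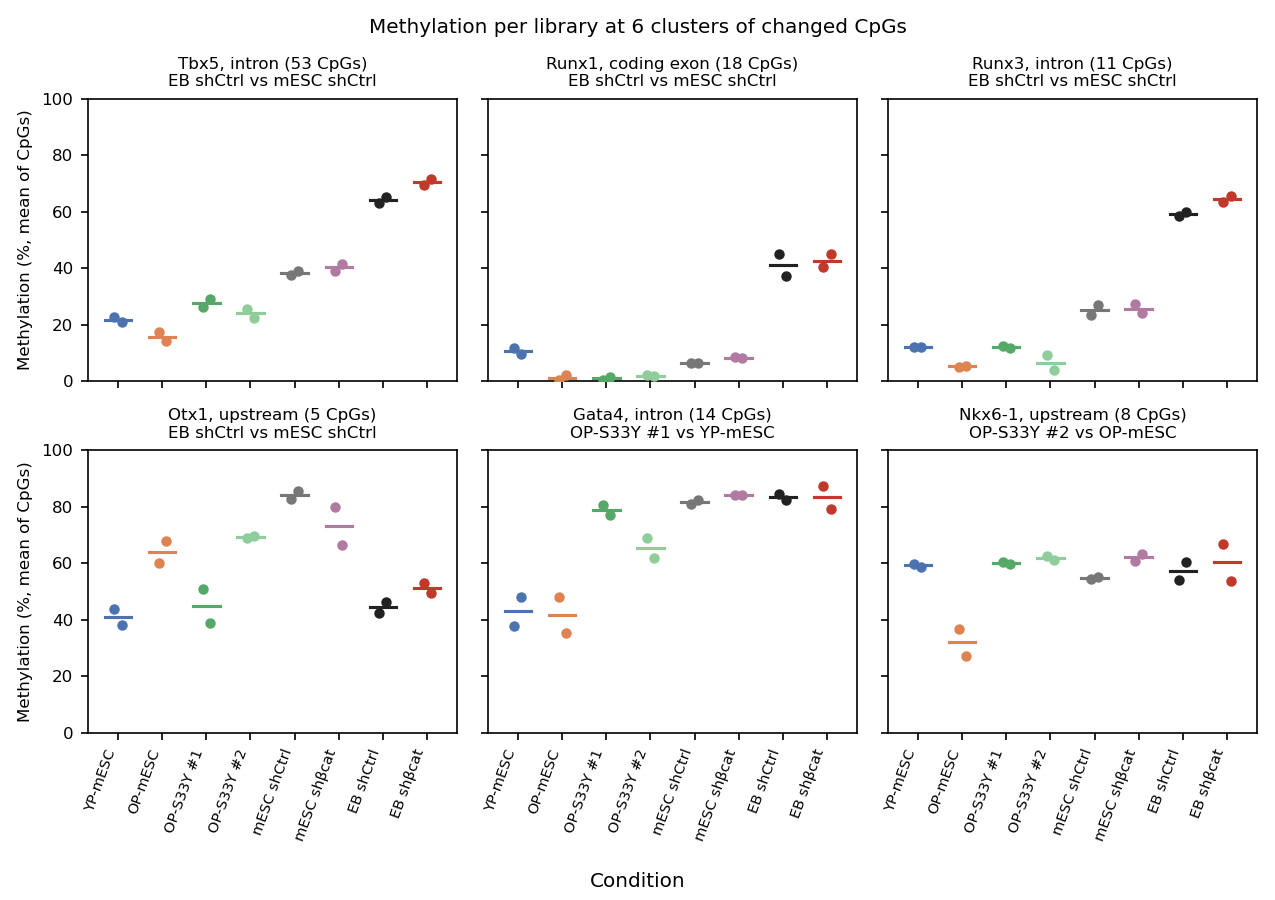
Methylation (%) per library at 6 clusters of changed CpGs, with a point per replicate and a bar at the mean. The Tbx5, Runx1 and Runx3 clusters are higher in both kinds of embryoid body, Otx1 is lower, and Gata4 is higher in OP-S33Y #1 than in YP-mESCs.

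The sequences below show CpG-dense stretches of these clusters, read from the mm9 genome on the strand of the gene, with the changed CpGs in capitals. The Tbx5 stretch (chr5:120285287-120285480, plus strand, intron) and the Runx1 stretch (chr16:92606023-92606227, minus strand, coding) carry the gain in embryoid bodies. The Runx3 stretch (chr4:134696750-134696883, plus strand, intron) does too, and the Otx1 stretch (chr11:21907225-21907318, minus strand, upstream) carries the only loss among the clusters. The Gata4 stretch (chr14:63887565-63887657, minus strand, intron) is the one that was higher in OP-S33Y #1 than in YP-mESCs. The Otx1 stretch was chosen after its values were seen.
Tbx5: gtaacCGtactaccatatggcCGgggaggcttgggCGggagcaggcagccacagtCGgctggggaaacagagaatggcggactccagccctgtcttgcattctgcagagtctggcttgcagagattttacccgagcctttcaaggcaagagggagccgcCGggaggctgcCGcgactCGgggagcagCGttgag
Runx1: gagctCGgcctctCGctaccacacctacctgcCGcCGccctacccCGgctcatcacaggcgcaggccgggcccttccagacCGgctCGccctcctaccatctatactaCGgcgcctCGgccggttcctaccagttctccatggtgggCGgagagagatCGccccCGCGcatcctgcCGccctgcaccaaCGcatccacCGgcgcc
Runx3: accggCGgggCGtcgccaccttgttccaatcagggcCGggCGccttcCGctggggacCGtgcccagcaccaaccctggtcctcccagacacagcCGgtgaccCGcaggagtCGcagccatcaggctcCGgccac
Otx1: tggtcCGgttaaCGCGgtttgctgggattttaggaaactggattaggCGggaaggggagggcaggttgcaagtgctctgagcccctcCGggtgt
Gata4: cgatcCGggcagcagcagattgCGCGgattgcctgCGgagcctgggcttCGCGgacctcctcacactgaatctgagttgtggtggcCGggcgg
In the Tbx5 stretch the 8 capital CpGs stood at 24.4% and 23.9% in mESC shCtrl and 55.8% and 54.9% in EB shCtrl. The 16 of Runx1 stood at 5.78% and 6.35% and then 47.8% and 39.1%, and the 10 of Runx3 at 21.4% and 24.6% and then 58.1% and 58.5%. The 5 of Otx1 went the other way, from 82.6% and 85.5% to 42.3% and 46.3%. The 7 of Gata4 stood at 42.6% and 52.8% in YP-mESCs, 53.9% and 27.1% in OP-mESCs, and 81.9% and 81.3% in OP-S33Y #1. Clone #2 had 69.0% and 50.6%. The same CpGs stood at 84.2% and 86.1% in mESC shCtrl, which derives from YP-mESCs and carries no S33Y.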

How the data were processed

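The authors made the bisulfite calls from reads aligned to mm9, and the submitters' processing notes name CASAVA 1.8.2, Trim Galore 0.2.8 and Bismark 0.7.9. Per CpG, the deposited files give the read count (coverage) and the percent of reads methylated, for sites with at least 10 reads. Methylated counts were recovered from these columns and the strands of each CpG were summed. Gene positions came from GENCODE vM1 on the same build.

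Genes with at least 2 CpGs covered in all 4 libraries of a comparison were tested with a quasi-binomial F test on methylated and unmethylated counts over all genes (R 4.3.3), with Benjamini-Hochberg adjustment, and with limma 3.58.1 on mean percentages as an alternative. Other alternatives were 20 reads per CpG, 5 CpGs per gene, 1 kb around the start site, a 25-point minimum, CpGs shared by all libraries, the replicate number as a block, and leaving out each library. An exact permutation test of 2 against 2 libraries cannot go below 0.33 and was not used. On simulated data, 84% of 20-point changes were called over 12343 genes for OP-mESCs against YP-mESCs, and 94% over 15098 genes for EB shCtrl against mESC shCtrl. At 10 points 29% and 33% were called. The changed genes were drawn only from those above 5% and were only raised, so these shares do not cover falls or lower genes. Under 5% stood 30 of 49 members in YP-mESCs and 19 of 53 in mESC shCtrl. Counting error only is covered by the read depth, since reads carry no molecular identifiers.

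Named genes were the called members with the largest differences (up to 10 per direction, or the 2 largest where none was called), the 10 highest promoters, Gata6, Nkx2-5, Sox1 and Pax6, and the 8 largest clusters. Genes named beyond this rule were chosen after their values were seen. The members and lists were chosen with earlier results of these data known. Same-numbered replicates did not deviate together (r between -0.0366 and 0.0362). Replicates differed by more than counting noise, so none was counted as a duplicate. Python 3.11.15 with numpy 2.4.6, pandas 2.3.3 and matplotlib 3.10.9 was used.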

Additional observations from a re-analysis of the deposited data

Results flagged for a closer look

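The items below had replicates that did not overlap in either setting and differences between shβcat and shCtrl of opposite sign in mESCs and in embryoid bodies. The difference between the settings was not tested, and mESC and EB values rest on partly different CpGs. At promoters, Foxa1 had a difference of -0.30 points in mESCs and 0.97 in EBs, and Sox9, a cartilage and neural crest factor, -1.02 and 3.63. In gene bodies, En2 had -2.99 in mESCs and 8.35 in EBs, Foxa2 -1.46 and 7.28, and Pax9 -6.33 and 3.64. The bodies of Gata4 (0.81 and -1.72), Runx2 (1.87 and -4.76), Runx3 (0.70 and -1.41) and T (6.92 and -5.91) went the other way. That is the direction of all genes, whose median body difference was 1.75 points in mESCs and -1.65 in EBs. Over all genes 7118 of 14450 bodies were higher without overlap in mESCs, and 5777 of 13758 lower without overlap in EBs. How many of all genes met both conditions was not counted. None of these was called in either setting.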

How the results depend on the processing

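The numbers of members called depended on the settings as follows. With 1 kb around the start site, OP-mESCs against YP-mESCs gave 1 called promoter of 48 (En1), beside 379 of 11753 genes. OP-S33Y #2 against OP-mESCs gave 1 of 51 (En1), beside 199 of 12174. With a 25-point minimum, OP-S33Y #1 against OP-mESCs gave 0 promoters, beside 113 of 12756 genes. EB shCtrl against mESC shCtrl gave 1 of 53, beside 455 of 15098. With the replicate block, these comparisons gave 0 and 0 promoters, and OP-mESCs against YP-mESCs gave 0 bodies. EB shCtrl against mESC shCtrl gave 8 of 49 bodies, beside 3008 of 14069 genes. EB shβcat against EB shCtrl gave 5 of 49 bodies (Dlx5, Foxd3, Gsc, Hand1 and Pax6), all higher. Over all genes it gave 245 of 13758, with 75 higher and 170 lower. Over all genes the block called 0 in each comparison where the members had 0, so those zeros say nothing of the members. With 20 reads per CpG, EB shCtrl against mESC shCtrl gave 3 of 52 promoters, beside 1528 of 13546 genes. OP-S33Y #2 against YP-mESCs gave 1 of 42 bodies (Otx1), beside 747 of 10516. EB shβcat against EB shCtrl gave 3 of 45 bodies, beside 125 of 11168. Limited to CpGs covered in all libraries (48 genes), the median promoter level was 5.77% in mESC shCtrl, 6.18% in mESC shβcat, 7.36% in EB shCtrl and 13.3% in EB shβcat. There the median was higher in mESC shβcat than in mESC shCtrl, the reverse of the order on all covered CpGs. The 24 called differences were refitted under each alternative that covered them, and 118 values were still called, 59 were not and 0 changed sign.

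Single CpGs with 20 reads, and past 40 points, numbered 13 and 3 for OP-mESCs against YP-mESCs, 17 and 3 for OP-S33Y #1 and 19 and 3 for OP-S33Y #2 against YP-mESCs, 14 and 9, and 29 and 4, for these clones against OP-mESCs, 9 and 7 for shβcat in mESCs, 170 and 67 for EB shCtrl, and 30 and 6 for shβcat in EBs. For passage and clones these were 0.954% and 0.112%, 0.593% and 0.0658%, 0.687% and 0.0634%, 0.999% and 0.333%, and 1.94% and 0.144% of members' CpGs. Over all CpGs the shares there were 2.74% and 0.740%, 0.668% and 0.0795%, 1.27% and 0.286%, 2.53% and 0.742%, and 1.26% and 0.261%. The shβcat and EB shCtrl comparisons had 0.231% and 0.106%, 4.81% and 1.05%, and 0.824% and 0.0972%. All CpGs there had 0.292% and 0.0872%, 7.17% and 3.04%, and 0.328% and 0.0671%. Leaving out each library gave 0 to 0 promoters for OP-S33Y #1 against OP-mESCs and 3 to 5 for EB shCtrl, and 0 to 3, 0 to 1, 9 to 13 and 0 to 3 bodies for OP-mESCs, shβcat in mESCs, EB shCtrl and shβcat in EBs. It gave 44 to 117, 49 to 62, 57 to 79, 57 to 121, 65 to 169, 78 to 109, 412 to 435 and 136 to 221 single CpGs, in the order above. With a single library left in a group, that library is assumed to vary like the other group. The number called over all genes also changed between these fits, so the ranges of called promoters and bodies are not read as results about the members.

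The causes of these shifts were not tested, beyond that a higher read minimum or larger difference leaves fewer CpGs and a lone library cannot show overlap.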
